A study of Homo sapiens with 12 samples.

Results

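Among the 19254 protein-coding genes measured by RNA sequencing in A549 cells, 35 read as present in one set of lines and near absent in the other. Of these, 19 genes (set a) had at least 5 FPKM in every vector and TIF1γ library and under 0.5 FPKM in every sh-NC and sh-TAF15 library. The other 16 (set b) had at least 2 FPKM in every sh-NC and sh-TAF15 library and under 0.5 FPKM in every vector and TIF1γ library. FPKM counts fragments relative to the length of the transcript and the size of the library, so levels of different genes can be compared per length. The members were chosen by these values, so the difference between the sh libraries and the vector and TIF1γ libraries is a description throughout and carries no test. MT1F and CES1 meet the limits of set a, and SNAI2 and ANXA10 those of set b, and they are left out by name. FTL, which meets the limits of set b, was left out because an exact 0 stood beside 100 FPKM or more.

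A549 is a line from a human lung adenocarcinoma. The cells carried a lentiviral construct that was stably expressed: TIF1γ, the protein of the gene TRIM33 (TIF1γ group), the empty construct (vector group), an shRNA against TAF15 (sh-TAF15 group) or the control construct of the shRNA system (sh-NC group). The labels list 12 samples as biological replicates, and 8 were analysed here: vector 1, 2 and 3, TIF1γ 2 and 3, sh-NC 2, and sh-TAF15 2 and 3. The labels name no deletion in any group and do not say whether a line is 1 clone or a pool. The type of construct and the line that carries it are the same split of the samples here, so they cannot be told apart for any difference between the sets. Since the labels do not say how the biological replicates were grown, a p-value measures the spread between these libraries.

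Genes that are on in some cells and off in others are often restricted to a lineage. Fibrinogen and trypsinogen are products of liver and pancreas that some lung adenocarcinoma cells also make, while the formyl peptide receptor FPR1 is best known from neutrophils. Promoters rich in the CpG dinucleotide usually serve broadly expressed genes, and promoters poor in CpG are typical of tissue-restricted genes.

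The bases upstream of 5 members are shown because they carry the base composition described further on. Each is the 250 bases before the RefSeq transcription start listed first for the gene in GRCh38.p14, written along the gene's own strand. Other starts of a gene were not examined, and whether these cells use the listed start was not tested. Capitals mark each CpG. They are FGA (chr4:154590743-154590992, minus strand) and FGB (chr4:154562730-154562979, plus strand), which encode the alpha and beta chains of fibrinogen, PRSS3 (chr9:33795311-33795560, plus strand), FPR1 (chr19:51751879-51752128, minus strand) and EFNB2 (chr13:106535663-106535912, minus strand).
FGA: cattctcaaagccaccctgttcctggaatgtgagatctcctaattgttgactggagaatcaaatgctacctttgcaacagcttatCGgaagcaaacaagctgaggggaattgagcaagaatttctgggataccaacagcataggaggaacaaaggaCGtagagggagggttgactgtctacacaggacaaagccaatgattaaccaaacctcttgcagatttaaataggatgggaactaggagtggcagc
FGB: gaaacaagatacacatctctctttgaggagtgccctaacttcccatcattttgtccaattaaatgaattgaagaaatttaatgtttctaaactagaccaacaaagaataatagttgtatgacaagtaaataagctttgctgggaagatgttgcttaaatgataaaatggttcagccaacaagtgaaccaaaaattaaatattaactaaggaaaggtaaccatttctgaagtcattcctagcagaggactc
PRSS3: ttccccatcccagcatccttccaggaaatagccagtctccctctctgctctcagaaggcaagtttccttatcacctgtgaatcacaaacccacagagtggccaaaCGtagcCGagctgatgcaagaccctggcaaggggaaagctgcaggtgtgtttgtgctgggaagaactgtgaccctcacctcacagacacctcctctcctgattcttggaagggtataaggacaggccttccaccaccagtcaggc
FPR1: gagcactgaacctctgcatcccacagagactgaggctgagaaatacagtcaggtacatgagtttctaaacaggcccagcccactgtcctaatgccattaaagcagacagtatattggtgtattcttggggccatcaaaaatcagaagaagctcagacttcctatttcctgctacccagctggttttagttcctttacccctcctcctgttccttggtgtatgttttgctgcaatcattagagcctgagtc
EFNB2: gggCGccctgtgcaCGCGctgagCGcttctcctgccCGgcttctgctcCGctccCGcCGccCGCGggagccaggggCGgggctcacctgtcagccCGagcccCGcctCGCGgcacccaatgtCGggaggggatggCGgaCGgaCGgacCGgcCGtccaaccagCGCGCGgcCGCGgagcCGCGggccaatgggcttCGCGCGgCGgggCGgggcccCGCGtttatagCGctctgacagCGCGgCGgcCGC
The FGA and PRSS3 bases hold 2 CpG each and those of FGB and FPR1 hold 0, against 40 in the EFNB2 bases.

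The low values have a fine scale. Many of them share a smallest step, taken here as 1 fragment, and by that step the libraries held 0.791 to 1.035 times as many fragments as vector 1. A level of 0.5 FPKM in a transcript of 2000 bases then equals an estimated 14.5 to 18.9 fragments, so a member just under that limit was not free of reads. Some genes that overlap others lie far below the step, such as UGT1A7 at 1.66e-05 FPKM in sh-NC 2, so not every value is a whole number of fragments. An exact 0 is less certain, because 19 genes were listed at 0 in some library beside 100 FPKM or more in another. TRIM33 stood at 2.23, 2.10 and 1.27 FPKM in the vector libraries, 8.03 and 6.14 in the TIF1γ libraries and 2.73 to 3.46 in the sh libraries; TAF15 itself is not analysed here. MTAP, of the chromosome 9 region known to be deleted in A549, was at 0.153 to 0.596 FPKM in the 8 libraries. CDKN2A, of the same region, was at most 0.0611 FPKM except for 1.895 FPKM in sh-TAF15 3. CDKN2B, also of that region, was at 0.206 FPKM in sh-TAF15 3 and at most 0.0149 FPKM in any other library. The source of these values was not tested. Summed leukocyte markers ranged from 42.2 to 96.2 FPKM in the vector and TIF1γ libraries and 30.7 to 39.1 FPKM in the sh libraries; CD14, CD68 and CORO1A carried the sum, CD3E was listed at 0 in all 8 and PTPRC did not pass 0.0227 FPKM. The summed epithelial markers were 11988 to 13794 FPKM in the vector libraries and 4282 to 6409 FPKM in the sh libraries. They were 4400 and 2808 FPKM in TIF1γ 2 and 3, where KRT8 and KRT18, which carry most of the sum elsewhere, are listed at 0. Of the 16 matched epithelial genes, 13 had a lower mean in the sh libraries. In every sh library 2 were lower than in every vector and TIF1γ library, and 0 were higher. For mesenchymal markers the sums were 767 to 935 FPKM in the vector and TIF1γ libraries against 1132 to 1362 FPKM in the sh libraries. VIM carried them, at 589 to 801 against 1022 to 1243 FPKM. Of the 15 matched mesenchymal genes, 9 were higher in every sh library and 2, FN1 and TWIST2, were lower. The sums were 1.80 to 3.95 against 1.06 to 3.39 FPKM for alveolar and airway markers, and at most 0.415 FPKM in any library for endothelial markers. Neuroendocrine markers summed to 6.98 to 13.7 against 1.61 to 1.97 FPKM, melanocyte markers to 2.13 to 6.56 against 3.45 to 6.43 FPKM and cancer-testis genes to 21.1 to 32.0 against 53.5 to 65.8 FPKM. Oxidative and carbonyl-metabolism genes abundant in A549 summed to 17176 to 24009 against 5194 to 7991 FPKM. The part of these differences in the results for the members was not tested.

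The rule asks for at least 5 FPKM in set a and 2 FPKM in set b, so the order of their levels follows in part from the choice. The means of the 19 set a genes over the 5 vector and TIF1γ libraries ran from 8.15 to 58.8 FPKM, with a median of 18.1 FPKM. The median member stood at percentile 61.3 of the expressed protein-coding genes. On the low side the highest of the 57 values was 0.475 FPKM, and 18 of them (31.6%) were listed at 0. SLC7A7 and CXCL5 were among the 8 members above 0 in all 3 sh libraries, and PRSS3 was the 1 member listed at 0 in all 3. Over all 13907 genes tested, 12.4% were lower in every sh library than in every vector and TIF1γ library.

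**Figure D1:**
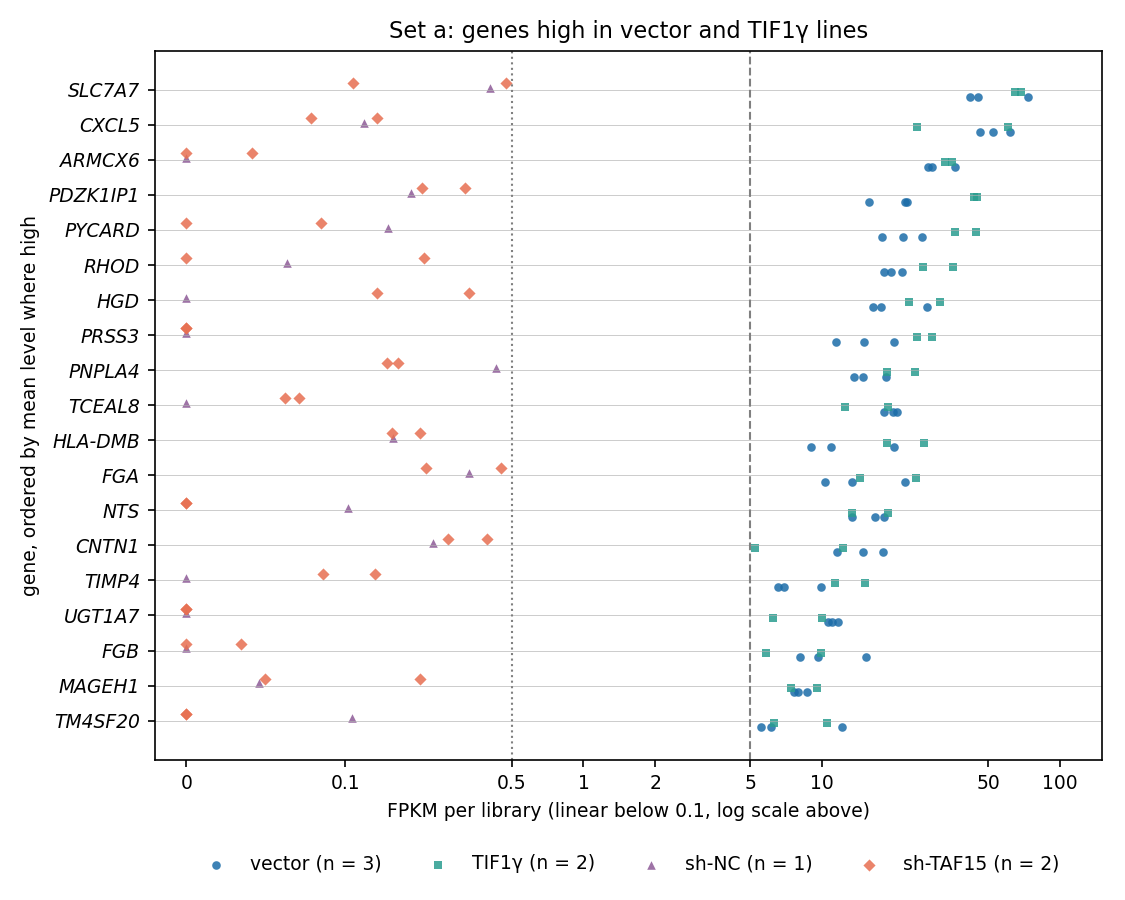
Level of each set a gene (FPKM, linear below 0.1 and on a log scale above) in the 8 libraries, with 1 point per library; the vertical lines mark the limits of the rule. All vector and TIF1γ points lie at 5.24 FPKM or above and all sh points at 0.475 FPKM or below.

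The protease class holds PRSS3 and TIMP4. PRSS3, which encodes mesotrypsin, a trypsin that resists most trypsin inhibitors and cleaves some of them, had 11.5, 15.1 and 20.1 FPKM in vector 1, 2 and 3 and 25.2 and 28.9 FPKM in TIF1γ 2 and 3. It was listed at 0 in sh-NC 2, sh-TAF15 2 and sh-TAF15 3. The related trypsinogen gene PRSS1 was listed at 0 in all 8 libraries, and PRSS2 was not matched. TIMP4, an inhibitor of matrix metalloproteinases, had 6.92, 6.57 and 9.90 FPKM in the vector libraries and 11.4 and 15.2 FPKM in the TIF1γ libraries, against 0, 0.0858 and 0.134 FPKM in the sh libraries. SYN2, within which TIMP4 lies on the opposite strand, was at most 0.276 FPKM in any library. Of the relatives of TIMP4, TIMP1 ranged from 179 to 355 FPKM against 233 to 408 FPKM in the sh libraries, and TIMP2 from 37.2 to 43.2 FPKM against 67.3 to 91.1 FPKM. TIMP3 was at most 0.0337 FPKM in the vector and TIF1γ libraries and 0.0751 to 0.812 FPKM in the sh libraries.

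Trypsins activate the receptor PAR2, and the other genes of that axis that changed did so in both directions. Of 14 genes on the list, 13 matched and 5 besides PRSS3 passed the filter on low values. In sh-NC against vector, 1 of the 5 rose and 1 fell by limma at an adjusted p under 0.05, a contrast in which 3.78% of all genes tested rose and 7.21% fell. The one that rose was F2RL1, the PAR2 gene itself (log2 fold change 1.35, SE 0.30, adjusted p = 0.0107). It read 14.1 to 23.4 FPKM in the vector and TIF1γ libraries and 49.3 to 60.4 FPKM in the sh libraries. The one that fell was SPINT2, a membrane-bound inhibitor of trypsin-like proteases (log2 fold change -3.35, SE 0.32, adjusted p = 1.78e-05), with 519 to 914 FPKM against 63.4 to 209 FPKM.

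The fibrinogen genes make up most of the adhesion and matrix class. FGA had 13.4, 10.3 and 22.4 FPKM in the vector libraries and 14.4 and 24.8 FPKM in the TIF1γ libraries. In the sh libraries it kept 0.329, 0.449 and 0.219 FPKM, so its low side is small but not empty. FGB, its neighbour in the genome, had 9.60, 8.10 and 15.3 FPKM, then 5.84 and 9.89 FPKM, against 0, 0.0347 and 0 FPKM. FGG, the gamma chain, is no member because TIF1γ 2 was at 4.59 FPKM; its other vector and TIF1γ values were 7.19 to 14.9 FPKM and it was listed at 0 in all 3 sh libraries. The genes of all 3 chains of the fibrinogen hexamer were thus higher in each vector and TIF1γ library than in any sh library. CNTN1, a cell adhesion molecule of neurons, read 14.9, 11.6 and 18.0 FPKM, then 5.24 and 12.2 FPKM, against 0.233, 0.270 and 0.394 FPKM. Its value in TIF1γ 2 is the lowest high-side value of the set.

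FOXA1 and FOXA2, regulators known for liver-type expression, were also lower in the sh libraries. FOXA1 read 5.25 to 10.3 FPKM in the vector and TIF1γ libraries and 1.48 to 1.87 FPKM in the sh libraries (sh-NC against vector, log2 fold change -1.65, SE 0.37, limma adjusted p = 0.0121). FOXA2 read 23.8 to 44.7 against 9.76 to 15.5 FPKM (log2 fold change -1.52, SE 0.28, limma adjusted p = 0.00386). The list of foregut and liver-type endoderm genes had 10 matched genes, FGA and FGB included, and summed to 81.0 to 140 FPKM against 15.2 to 21.4 FPKM. In sh-NC against vector, its 7 tested genes that are not members had a median log2 fold change of -1.65, with 1 sh-NC library. FGG, which missed set a by its TIF1γ 2 value, is among them. GATA6 of the list overlapped between the sides at 0.946 to 2.52 and 0.796 to 0.956 FPKM. SERPINA1 overlapped as well, at 0.887 to 2.36 and 0.494 to 1.91 FPKM. APOH, a plasma glycoprotein of liver, fell by 3.95 on the log2 scale (SE 0.44, limma adjusted p = 0.000106).

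Secreted signals were represented by CXCL5 and NTS. CXCL5, a chemokine that attracts neutrophils, had 52.4, 46.3 and 61.7 FPKM in the vector libraries and 25.1 and 60.3 FPKM in the TIF1γ libraries. It kept 0.120, 0.0784 and 0.136 FPKM in the sh libraries. The related chemokine genes kept a measurable level there: CXCL1 read 82.3 to 143 against 5.14 to 10.6 FPKM, CXCL3 19.0 to 47.9 against 2.41 to 3.79 FPKM and CXCL8 15.9 to 45.4 against 2.63 to 4.70 FPKM. Their receptor CXCR2 was at most 0.192 FPKM in any library. NTS, the precursor of the gut and brain peptide neurotensin, read 13.4, 16.7 and 18.3 FPKM, then 13.4 and 19.0 FPKM, against 0.103, 0 and 0 FPKM. The receptor gene NTSR1 was at most 0.337 FPKM in any library.

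The transporter class holds the member with the highest level. SLC7A7, the light subunit of an exchanger for cationic and neutral amino acids, read 41.9, 45.3 and 73.5 FPKM in the vector libraries and 64.6 and 68.5 FPKM in the TIF1γ libraries. It read 0.407, 0.475 and 0.108 FPKM in the sh libraries, the second of which is the highest low-side value of the set. Its heavy subunit SLC3A2, which serves several light subunits, overlapped between the sides at 415 to 706 and 446 to 600 FPKM. PDZK1IP1, a small membrane protein that activates renal glucose transport, read 15.9, 22.3 and 22.8 FPKM, then 43.6 and 44.9 FPKM, against 0.190, 0.318 and 0.211 FPKM. The 2 TIF1γ values lie well above the 3 vector values.

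PYCARD and HLA-DMB are the immune members. PYCARD, the adaptor ASC that links inflammasome sensors to caspase 1, read 17.9, 26.4 and 22.0 FPKM, then 44.4 and 36.2 FPKM, against 0.152, 0 and 0.0847 FPKM. CASP1 went the other way, with at most 0.760 FPKM in the vector and TIF1γ libraries and 1.38 to 5.94 FPKM in the sh libraries. The sensor gene NLRP3 was at most 0.0961 FPKM in any library and AIM2 was listed at 0 in all 8. HLA-DMB, the beta chain of the class II peptide-loading chaperone, read 8.97, 10.9 and 20.1 FPKM, then 18.8 and 26.7 FPKM, against 0.159, 0.157 and 0.205 FPKM. HLA-DMA, the alpha chain, read 9.22 to 18.2 against 1.89 to 4.72 FPKM and fell in sh-NC against vector (log2 fold change -2.29, SE 0.36, limma adjusted p = 0.00127). HLA-DRA, a chain of the class II molecules that the chaperone loads, was listed at 0 in the vector and TIF1γ libraries and stood at 0.204 to 0.410 FPKM in the sh libraries.

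The metabolic members are HGD, PNPLA4 and UGT1A7. HGD, which opens the ring of homogentisate in tyrosine breakdown, read 17.7, 16.5 and 27.7 FPKM, then 23.3 and 31.5 FPKM, against 0, 0.137 and 0.331 FPKM. FAH, which acts later in the same pathway, overlapped at 45.5 to 90.4 and 29.6 to 52.1 FPKM. PNPLA4, a lipase and retinyl ester hydrolase, read 13.6, 18.5 and 14.9 FPKM, then 18.8 and 24.7 FPKM, against 0.431, 0.149 and 0.166 FPKM. UGT1A7, a glucuronosyltransferase, read 11.1, 10.6 and 11.7 FPKM, then 6.23 and 9.98 FPKM, and was listed at 1.66e-05, 0 and 0 FPKM in the sh libraries. Genes of the UGT1A locus share their last exons, so its level cannot be separated from that of UGT1A1, UGT1A6 and UGT1A8, which were also lower there. UGT1A1, for example, read 1.86 to 4.46 FPKM in the vector and TIF1γ libraries and at most 0.189 FPKM in the sh libraries.

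Of the other members, RHOD, a small GTPase of endosome movement and actin, read 18.2, 21.7 and 19.6 FPKM, then 35.5 and 26.6 FPKM, against 0.0634, 0 and 0.214 FPKM. ARMCX6, of an armadillo-repeat family on chromosome X, read 28.0, 36.1 and 29.1 FPKM, then 35.0 and 32.9 FPKM, against 0, 0 and 0.0414 FPKM. Its neighbour ARMCX3 read 3.90 to 6.66 against 0.0609 to 0.518 FPKM, whereas ARMCX5 was higher in the sh libraries at 5.02 to 5.57 FPKM against 1.74 to 4.11 FPKM. A family on the same chromosome split likewise. TCEAL8 read 20.8, 20.0 and 18.2 FPKM, then 12.5 and 19.0 FPKM, against 0, 0.0621 and 0.0711 FPKM. TCEAL9 read 15.2 to 33.7 FPKM in the vector and TIF1γ libraries and 52.6 to 64.9 FPKM in the sh libraries. MAGEH1, of the MAGE family, had 7.94, 8.70 and 7.63 FPKM, then 9.51 and 7.43 FPKM, against 0.0457, 0.0497 and 0.206 FPKM. TM4SF20, a membrane protein of the L6 family, read 6.15, 5.57 and 12.2 FPKM, then 6.30 and 10.5 FPKM, against 0.107, 0 and 0 FPKM. Within the same family TM4SF5 was lower too, at 1.23 to 4.69 FPKM and listed at 0 in the 3 sh libraries, while TM4SF1 overlapped at 238 to 450 and 266 to 307 FPKM.

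In set b, means over the 3 sh libraries ran from 2.93 to 17.1 FPKM with a median of 3.87 FPKM, and the median member stood at percentile 21.6 of the expressed protein-coding genes. On the low side the highest of 80 values was 0.465 FPKM, and 16 (20.0%) were listed at 0. No member was at 0 in all 5 vector and TIF1γ libraries, and 10 were above 0 in every one. Over all genes tested, 24.4% were higher in every sh library than in every vector and TIF1γ library.

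**Figure D2:**
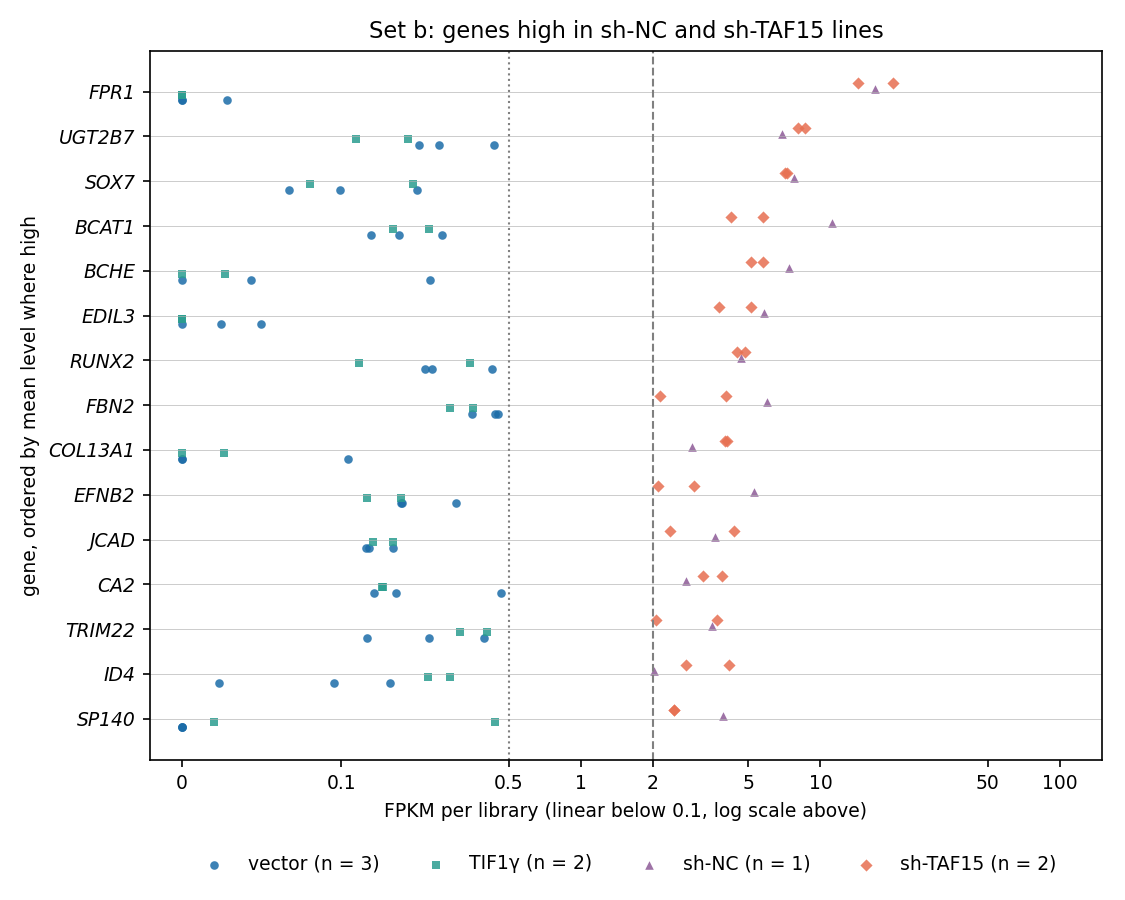
Level of the set b genes named in the text (FPKM, linear below 0.1 and on a log scale above) in the 8 libraries, with 1 point per library; the vertical lines mark the limits of the rule. The sh points lie at 2.02 FPKM or above, FPR1 stands highest at 14.3 to 20.1 FPKM, and all vector and TIF1γ points lie at 0.465 FPKM or below.

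FPR1 and EFNB2 act at the cell surface, as a receptor and as a ligand. FPR1, which senses formylated peptides of bacteria and mitochondria, read 16.8, 14.3 and 20.1 FPKM in sh-NC 2, sh-TAF15 2 and sh-TAF15 3. It was listed at 0 in 4 of the 5 vector and TIF1γ libraries and read 0.0284 FPKM in vector 3. Its locus overlaps FPR2 and FPR3 on the opposite strand, which were at 0 in the vector and TIF1γ libraries and at most 0.455 and 0.0504 FPKM in the sh libraries. EFNB2, a membrane-bound ligand of Eph receptors, read 5.29, 2.96 and 2.10 FPKM against 0.302, 0.177, 0.180, 0.127 and 0.178 FPKM. Its receptor EPHB2 was higher in the sh libraries as well, at 18.4 to 25.5 FPKM against 7.93 to 14.3 FPKM, and EPHB4 overlapped at 13.0 to 14.8 and 14.0 to 31.5 FPKM.

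Of the formyl peptide receptor axis, 14 genes matched and 8 besides FPR1 were tested. In sh-NC against vector, with 1 sh-NC library, the median log2 fold change of the 8 was 0.06. The lowest were ARRB1 (log2 fold change -1.92, SE 0.42) and ARRB2 (log2 fold change -1.54, SE 0.28). ARRB1 read 2.12 FPKM in sh-NC 2, 5.65 and 4.54 FPKM in sh-TAF15 2 and 3, and 6.80 to 19.4 FPKM in the vector and TIF1γ libraries. ARRB2 read 30.9 FPKM, then 62.7 and 68.9 FPKM, against 76.4 to 157 FPKM. In each case the lone sh-NC library was the lowest. Both encode arrestins, which bind activated receptors and end G-protein signalling. ANXA1, whose product is a ligand of the receptor family, read 171 to 351 FPKM against 510 to 557 FPKM in the sh libraries, and did not pass the test (log2 fold change 0.75, SE 0.33, limma adjusted p = 0.163). Of the leukocyte list, 12 genes matched and 4 were tested. Their median log2 fold change in sh-NC against vector was -0.80, and CD14 was lowest (log2 fold change -1.76, SE 0.39). ITGAM, a myeloid integrin chain, was higher in every sh library, at 1.14 to 2.42 against 0.111 to 0.859 FPKM, and did not pass the test (log2 fold change 1.15, SE 0.37, limma adjusted p = 0.0608). Its part in the level of FPR1 was not tested. The markers CSF3R, LYZ and SPI1 of that list were at most 0.0571, 0.191 and 0.153 FPKM in any library.

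The transcription and chromatin class has 4 members. SOX7, a factor of endothelial and endodermal development, read 7.74, 7.26 and 7.15 FPKM against 0.0993, 0.0671, 0.208, 0.0805 and 0.199 FPKM. Its relative SOX17 ran the other way, at 0.613 to 1.05 FPKM against at most 0.0597 FPKM in the sh libraries. PINX1, which overlaps SOX7 on the same strand, was listed at 0 in all 8 libraries. How reads of SOX7 and PINX1 were assigned was not tested. RUNX2, the master regulator of bone formation, read 4.66, 4.47 and 4.84 FPKM against 0.239, 0.424, 0.223, 0.119 and 0.344 FPKM. RUNX1 overlapped at 2.07 to 3.84 and 1.39 to 2.36 FPKM. RUNX3 read 7.22 to 10.1 against 4.40 to 7.02 FPKM, and the shared subunit CBFB 21.5 to 23.0 against 6.92 to 14.3 FPKM. SP140, a reader of chromatin in immune cells, read 3.91, 2.45 and 2.44 FPKM against 0, 0, 0, 0.437 and 0.0203 FPKM. SP110, which overlaps it on the opposite strand, read 7.40 to 8.60 against 4.26 to 4.57 FPKM. ID4, an inhibitor of helix-loop-helix factors, read 2.02, 2.74 and 4.17 FPKM against 0.0235, 0.0954, 0.159, 0.229 and 0.283 FPKM. Of its family, ID2 was higher in every sh library too, at 110 to 150 against 51.4 to 92.1 FPKM, and ID1 overlapped at 519 to 1065 and 635 to 1337 FPKM.

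The matrix members are EDIL3, FBN2 and COL13A1. EDIL3, a secreted integrin ligand, read 5.82, 5.14 and 3.77 FPKM against 0.0245, 0.0497, 0, 0 and 0 FPKM. FBN2, a fibrillin of elastic fibres, read 6.01, 4.05 and 2.14 FPKM against 0.437, 0.350, 0.451, 0.285 and 0.355 FPKM. FBN1 showed the same direction at lower levels, with 1.69 to 2.24 against 0.178 to 0.548 FPKM. COL13A1, a transmembrane collagen, read 2.90, 4.01 and 4.09 FPKM against 0, 0.107, 0, 0 and 0.0266 FPKM. JCAD, a protein of endothelial cell junctions, read 3.63, 4.35 and 2.35 FPKM against 0.126, 0.165, 0.131, 0.165 and 0.136 FPKM. The low side of JCAD and FBN2 was therefore above 0 in all 5 libraries.

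Enzymes are encoded by 4 set b genes. UGT2B7, a glucuronosyltransferase of steroids and drugs, read 6.93, 8.09 and 8.61 FPKM against 0.212, 0.255, 0.434, 0.190 and 0.115 FPKM. Relatives of UGT2B7 were near absent: UGT2B4, UGT2B10, UGT2B11, UGT2B15 and UGT2B28 were listed at 0 in all 3 sh libraries and were at most 0.415 FPKM elsewhere. BCAT1, the cytosolic branched-chain aminotransferase, read 11.1, 5.76 and 4.23 FPKM against 0.174, 0.132, 0.262, 0.164 and 0.233 FPKM. The mitochondrial enzyme BCAT2 overlapped at 72.1 to 97.3 and 77.7 to 151 FPKM. BCHE, butyrylcholinesterase, read 7.38, 5.12 and 5.75 FPKM against 0, 0.234, 0.0432, 0.0272 and 0 FPKM. CA2, a cytosolic carbonic anhydrase, read 2.74, 3.23 and 3.87 FPKM against 0.169, 0.137, 0.465, 0.149 and 0.148 FPKM, and the value in vector 3 is the highest low-side value of the set. The membrane enzyme CA12 was lower in the sh libraries, at 48.6 to 76.5 FPKM against 89.8 to 228 FPKM. TRIM22, an interferon-induced antiviral protein, read 3.54, 3.71 and 2.05 FPKM against 0.233, 0.127, 0.394, 0.407 and 0.313 FPKM. It overlaps TRIM5 on the opposite strand, which was at 4.55 to 7.51 FPKM in the vector and TIF1γ libraries and 5.28 to 7.17 FPKM in the sh libraries, so reads of the pair could not be separated if counting ignored strand.

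The difference between TIF1γ and vector was tested within set a. The rule does not use that difference directly. Its limit of 5 FPKM in every library does leave out genes that fell below it in a TIF1γ library, as FGG did. The median and the counts by direction are therefore not free of the choice. No set a gene passed an adjusted p under 0.05 by limma, and over all 13907 genes tested 0.0216% did (0.0144% higher and 0.00719% lower). TRIM33, which encodes TIF1γ itself, did not pass either (log2 fold change 1.45, SE 0.27, limma adjusted p = 0.129). A gene that was not called can therefore not be taken as unchanged. At an unadjusted p under 0.05 there were 4 set a genes higher and 1 lower, beside 19.9% of all genes tested, 8.54% higher and 11.4% lower. The median log2 fold change of the 19 was 0.27 (all genes 0.02), with 12 above 0 and 7 below. It was 0.43 without TIF1γ replicate 2, 0.04 without TIF1γ replicate 3, 0.12 without vector replicate 1, 0.15 without vector replicate 2 and 0.06 with FPKM rescaled to a common sum. PDZK1IP1, at 20.3 ± 3.88 FPKM (SD, n = 3) in vector and 44.3 ± 0.880 FPKM (SD, n = 2) in TIF1γ, had the highest log2 fold change (1.02, SE 0.26, limma adjusted p = 0.2). PYCARD followed at 22.1 ± 4.25 against 40.3 ± 5.81 FPKM (0.77, SE 0.26, limma adjusted p = 0.2), then PRSS3 at 15.5 ± 4.32 against 27.1 ± 2.64 FPKM (0.72, SE 0.29, limma adjusted p = 0.222). CNTN1 was lowest, at 14.8 ± 3.23 against 8.73 ± 4.93 FPKM (-0.86, SE 0.35, limma adjusted p = 0.225), and without TIF1γ replicate 2 its log2 fold change was -0.23. The TIF1γ libraries lay above all vector libraries for PDZK1IP1, PYCARD, PRSS3 and RHOD (17.3% of all genes tested did so) and below them for UGT1A7 (19.3%). With a trend on transcript GC percent removed from each library, the log2 fold changes shrank to 0.66 for PDZK1IP1, 0.34 for PYCARD, 0.35 for PRSS3 and -0.34 for CNTN1. The median of the 19 did not shrink and was 0.34.

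Within set b, the TAF15 shRNA was compared with its control. The spread used for these genes comes mostly from vector and TIF1γ libraries, where the rule holds them under 0.5 FPKM. The p-values therefore measure little of the spread among the sh libraries. The limit of 2 FPKM in every sh library also leaves out genes that fell below it in either group, so the changes are not free of the choice. No set b gene passed the test by limma, against 0.0575% of all genes tested (0.0503% higher and 0.00719% lower). Unadjusted p under 0.05 was reached by 3 genes, all lower in sh-TAF15, where 5.64% of all genes tested reached it, 2.07% lower and 3.57% higher. The median log2 fold change of the 16 was -0.24 (all genes -0.0031), with 4 above 0 and 12 below. It was -0.46 without sh-TAF15 replicate 2 and -0.14 without sh-TAF15 replicate 3. With 0.1 and 5 added to FPKM in place of 1 it was -0.32 and -0.12. It was -0.31 with FPKM rescaled to a common sum and -0.14 with the GC trend removed. BCAT1 stood at 11.1 FPKM in the sh-NC library and 5.00 ± 1.08 FPKM (SD, n = 2) in sh-TAF15 (log2 fold change -1.07, SE 0.35, limma adjusted p = 0.569). EFNB2 stood at 5.29 and 2.53 ± 0.605 FPKM (-0.88, SE 0.35, limma adjusted p = 0.779), and FBN2 at 6.01 and 3.10 ± 1.35 FPKM (-0.85, SE 0.38, limma adjusted p = 0.849). FBN2 without sh-TAF15 replicate 3 had a log2 fold change of -0.49. FPR1 was close to level (-0.05, SE 0.35, limma adjusted p = 0.995). Both sh-TAF15 libraries lay above the lone sh-NC library for 4 genes and below it for 9, where 35.3% and 37.8% of all genes tested did so.

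**Figure D3:**
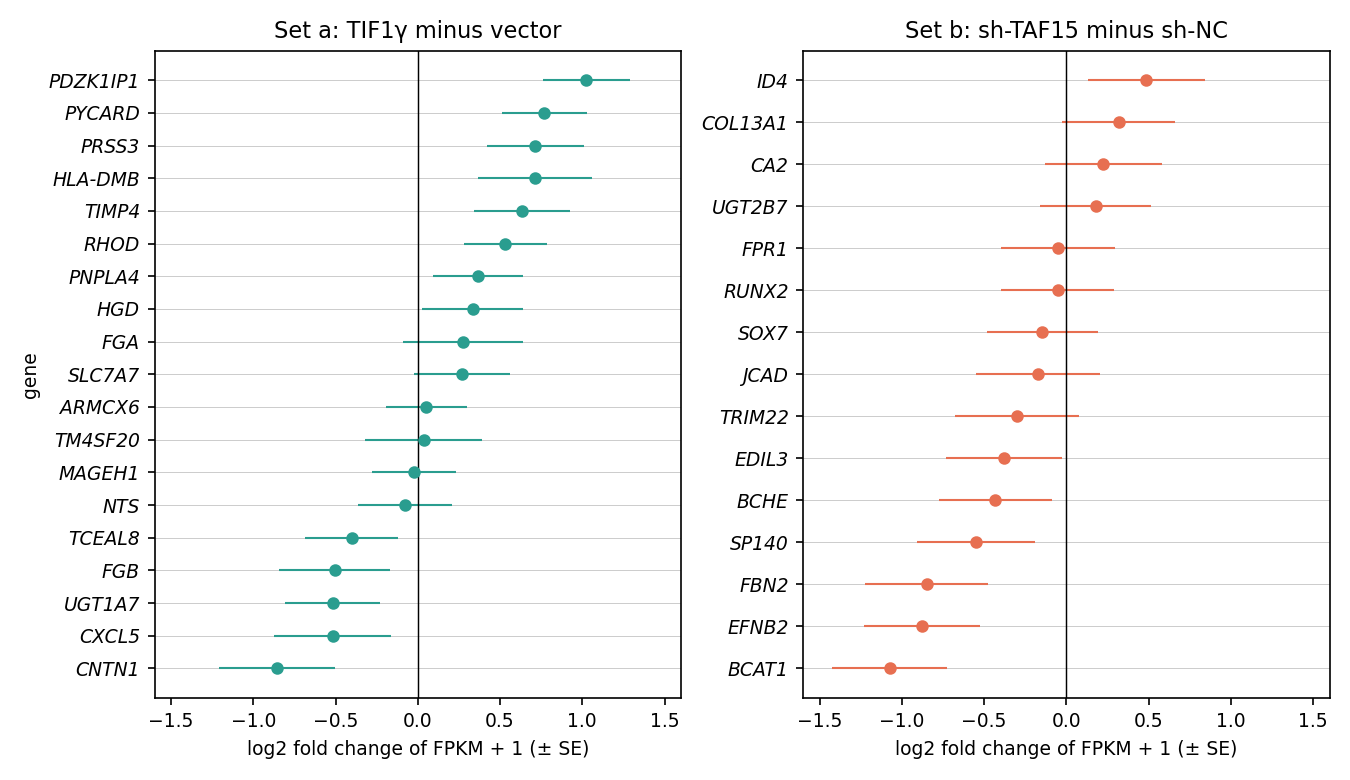
Log2 fold change with its standard error for set a genes in TIF1γ against vector and for the set b genes named in the text in sh-TAF15 against sh-NC, from limma on log2(FPKM + 1). Set a spans -0.86 to 1.02 and set b -1.07 to 0.49, and no gene passed an adjusted p under 0.05.

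Libraries of one side also differed within the sets. Among the vector libraries, 13 of the 19 set a genes were highest in vector 3, where 36.5% of the 6368 protein-coding genes at 5 FPKM or more in every vector and TIF1γ library were. Among the sh libraries, 8 of the 16 set b genes were highest in sh-NC 2 (34.4% of 9292 protein-coding genes at 2 FPKM or more in every sh library), 6 in sh-TAF15 3 (45.7%) and 2 in sh-TAF15 2 (19.9%).

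Near the limits the sets shade into other genes. In set a, CNTN1 lies just inside the lower limit, with a lowest high-side value of 5.24 FPKM, and SLC7A7 just inside the upper limit at 0.475 FPKM. Just outside are CIDEC, with 0.537 FPKM in sh-TAF15 2 beside 5.72 FPKM or more in the vector and TIF1γ libraries, and ZNF544, with 0.540 FPKM beside 10.0 FPKM or more. In set b, ID4 and TRIM22 are just inside with lowest sh values of 2.02 and 2.05 FPKM. CD74, the class II invariant chain, and IL20RB lie just outside with 1.97 and 1.95 FPKM.

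In the genome, the members were mostly scattered. FGA and FGB were the adjacent members. Of the other 36 nearest genes of set a members (1 on each side, GENCODE 29), 20 reached 1 FPKM in some library. Of these, 6 were lower in every sh library and 5 were higher, where 12.4% and 24.4% of all genes tested were. CXCL3, ARMCX3 and FGG are among the first; PPARG, the neighbour of TIMP4, is among the second, at 17.5 to 23.1 FPKM against 31.2 to 41.7 FPKM. Of the 32 nearest genes of set b members, 13 reached 1 FPKM. Of these, 4 were higher in every sh library and 0 lower, among the first SUPT3H beside RUNX2 (1.58 to 3.45 against 7.30 to 9.22 FPKM), which also overlaps it on the opposite strand. On chromosome X lay 4 of 19 set a genes (ARMCX6, PNPLA4, TCEAL8 and MAGEH1; 21.1%), 0 of 16 set b genes and 376 of 11720 tested protein-coding genes (3.21%). Transcripts of set a had a median length of 1975 bases and those of set b 3231 bases, against 3586 bases for the tested protein-coding genes. Median transcript GC was 46.9%, 47.2% and 48.9%.

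RefSeq promoters (250 bases before to 50 after the start listed first for the gene) were matched for 17 of 19 set a genes and 12 of 16 set b genes. A promoter was counted as CpG-dense at a GC content of at least 50% and an observed to expected CpG ratio of at least 0.6. By that measure 3 of 17 set a promoters (17.6%; PYCARD, TCEAL8 and RHOD) were CpG-dense, beside 82.3% of 9510 promoters of tested protein-coding genes and 46.9% of all 27305 promoters in the table. The median set a promoter held 6 CpG and the median promoter of a tested gene 27. In set b 6 of 12 were CpG-dense, from FPR1 and UGT2B7 with 0 CpG to EFNB2 with 49 in the 300 bases; with fewer than 80% of its genes matched, the comparison is void for set b.

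**Figure D4:**
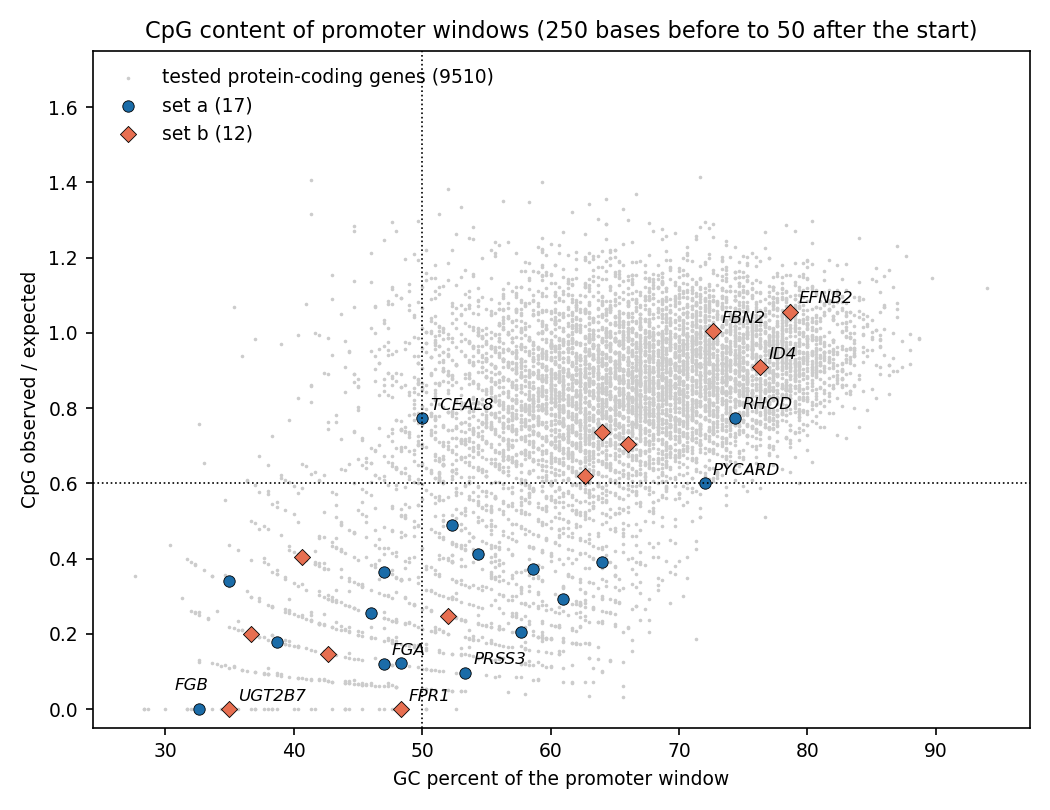
GC percent (x axis) and observed to expected CpG ratio (y axis) of the 300-base RefSeq promoters, with 1 large point per matched member, 17 of set a and 12 of set b, over grey dots for the 9510 promoters of tested genes; dotted lines mark the limits of 50% and 0.6. Of set a, 3 points (PYCARD, TCEAL8 and RHOD) reach both limits of a CpG-dense promoter; EFNB2 of set b has the highest ratio among the members.

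Short motifs of AP-1, the TATA box and the antioxidant response element were searched on both strands of those 300 bases; a match is a description of letters. The AP-1 letters TGANTCA were in 1 of 17 set a promoters (PRSS3; 5.88%), beside 4.41% of tested genes and 7.76% of all promoters. TATAAA was in 0 of 17, beside 5.27% and 11.95%. The antioxidant response core TGACNNNGC, which can overlap an AP-1 match, was in 2 of 17 (SLC7A7 and ARMCX6; 11.8%), beside 15.2% and 13.6%. Of the 12 matched set b promoters, which are not compared with other genes for the reason above, FPR1, RUNX2, BCHE and JCAD held TGANTCA. BCHE, COL13A1, ID4 and EFNB2 held TATAAA, and BCHE, SP140 and EFNB2 held TGACNNNGC.

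On the annotated genome, 4 of 19 set a genes and 11 of 16 set b genes overlap a gene on the opposite strand. In set a, 0 of those partners reached 1 FPKM in any library. In set b, the partners of 5 genes (EDIL3, RUNX2, TRIM22, ID4 and SP140) did, and whether the counting used strand is not given in the sources used here.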

How the data were processed

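The authors deposited 1 table of FPKM per library with no logarithm; each library was therefore normalized on its own, and levels set across libraries rest on that scaling. The unit is taken from the values, which step by transcript length for many genes. Per the submitters' processing notes, cutadapt 1.9.1, HISAT2 2.0.1, HTSeq 0.6.1 and GRCh37 were used. The members and the 13 marker and pathway lists were chosen with earlier results of these data known. Genes were named by rank of mean level within a set and functional class, which took in all members; a set b gene and some related results are not reported here, though counts over the sets and lists include them.

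Types, lengths and neighbours came from GENCODE 29 (GRCh38), which typed 52324 of 57879 identifiers. The 19 genes with an exact 0 beside 100 FPKM were set aside. Genes at 1 FPKM or more in at least 2 libraries (13907) were brought to a common scale by the trimmed mean of their log2 ratios to the average library (30% of ratios and 5% of abundances trimmed) and tested as log2(FPKM + 1), which draws the fold changes of low genes toward 0. limma 3.58.1 in R 4.3.3 fitted all 4 groups together (lmFit, eBayes with trend and robust; 4 residual degrees of freedom), with Benjamini-Hochberg adjustment over all genes tested. With 1 library, sh-NC takes its spread from the other groups, which for set b genes are mostly libraries where the genes are near absent. Read totals are not known, so no counting intervals are given.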

Additional observations from a re-analysis of the deposited data

How the results depend on the processing

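Both sets depend on the limits and on the scaling of the libraries. With trimmed-mean scaling, 18 of the 19 set a genes (without CNTN1) and 11 of the 16 set b genes (without CA2, EFNB2, FBN2, ID4 and TRIM22) met the rule. With FPKM rescaled to a common sum, 14 of set a (without CNTN1, FGB, SLC7A7, TM4SF20 and UGT1A7) and 12 of set b (without CA2, EFNB2, FBN2 and TRIM22) did. With an upper limit of 0.1 FPKM on the low side there were 5 genes in set a and 2 in set b, and with 1 FPKM there were 32 and 43. A common lower limit of 5 FPKM left 4 genes in set b, and one of 2 FPKM gave 55 in set a. Leaving out each library in turn gave 19 to 25 genes in set a and 17 to 26 in set b, the highest (26) without sh-NC replicate 2.

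No member was called under any of the 16 alternatives in either contrast. The count over all genes varied. For TIF1γ against vector (3 genes) it was 5 with a pseudocount of 0.1, 0 without a filter on low values, 7 with at least 1 FPKM in all libraries of a group, 1 with the GC trend removed, and 1 to 307 with a library left out, the highest without vector replicate 3. For sh-TAF15 against sh-NC (8 genes) it was 21 and 13 with pseudocounts of 0.1 and 5, 187 without a filter, 49 with the group filter, 4 with the GC trend removed, 229 with only those groups in the fit, and 0 to 52 with a library left out (0 without either sh-TAF15 library). The cause was not tested.

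With the replicate number as a block, 44 genes were called for TIF1γ and 52 for sh-TAF15, and 0 members in each. Vector and TIF1γ libraries of the same number deviated together weakly (r = 0.172 for replicate 2 and 0.121 for replicate 3), and with so few pairs the numbers were not taken as a pairing. The lone sh-NC library could not be left out of the fit.

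Over the alternatives the log2 fold change ran from 0.66 to 1.14 for PDZK1IP1 (adjusted p 0.0568 to 0.729), 0.34 to 0.89 for PYCARD, 0.35 to 0.93 for PRSS3, -1.48 to -0.23 for CNTN1, and -1.28 to -0.71 for BCAT1 (adjusted p 0.104 to 1). Depth limits the low side, where a few fragments decide whether a gene is listed at 0.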
